A study of Homo sapiens with 16 samples.

Results

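Doxorubicin is an anthracycline, and cells reduce it with enzymes that are otherwise used for ketones, aldehydes and quinones. The 8 genes described here encode such enzymes: the carbonyl reductases CBR1, CBR3 and CBR4, the aldo-keto reductases AKR1A1, AKR1B1, AKR1C3 and AKR7A2, and POR, the NADPH-cytochrome P450 reductase. They were taken by symbol, and all 8 were found among the 26410 genes measured. RNA was sequenced from SH-SY5Y, a human neuroblastoma line of sympathoadrenal origin, in 16 libraries of 4 groups with 4 libraries each. The groups were untreated scrambled control (Scr) cells, untreated TRPM2 KO cells, Scr cells given doxorubicin and TRPM2 KO cells given doxorubicin. The sample labels give a dose of 0.3 µM for 24 h, and the series' design text gives 3 µM. Scr cells were the clones Scr13 and Scr16 and KO cells the clones KO11 and KO28, with 2 libraries per clone and treatment. Each clone was grown from a single cell after CRISPR editing, puromycin selected, and both genotypes carried the donor with GFP and puromycin resistance. The 2 libraries of a clone share that clone, so p-values over 4 libraries measure the spread between libraries, and a difference between genotypes cannot be told apart from one between clones.

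In carbonyl reduction, the side-chain ketone of doxorubicin is turned into an alcohol, doxorubicinol, with NADPH as the donor. CBR1 and several aldo-keto reductases are known for this step. In quinone reduction, a flavoenzyme such as POR hands an electron from NADPH to the quinone ring, and the semiquinone that forms can pass it to oxygen. Both routes draw on NADPH, so the genes that make NADPH and the other reductases of each kind were also counted. A bulk library gives RNA per total RNA, and fewer cells that express a gene cannot be told apart from less RNA per cell.

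Libraries held 10481177 to 25086085 reads on genes. Values are normalized CPM, that is CPM on a library size corrected by a normalization factor. Differences were tested with limma on log2(normalized CPM + 1) and adjusted with the Benjamini-Hochberg method over all genes tested, at a threshold of 0.05. A gene was tested where at least 4 libraries of the fit reached 1 normalized CPM.

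TRPM2, the edited gene, was read first as a check of the labels. Without treatment, 35 and 37 of its reads were counted in KO11, 21 and 30 in KO28, 3 and 2 in Scr13 and 0 in both Scr16 libraries. With doxorubicin there were 19 and 29 in KO11, 21 and 11 in KO28, 1 in each Scr13 library and 14 and 6 in Scr16. The untreated groups did not overlap, and the libraries labelled TRPM2 KO were the higher ones (limma log2 difference 1.47, SE 0.27, adjusted p = 0.00154). TRPM2 reached the filter of 1 normalized CPM there only through these libraries, where it was high, as untreated Scr reached at most 0.118. The treated groups overlapped (0.69, SE 0.33, limma adjusted p = 0.249). The counts cover the whole gene while the edit removed the start of its coding sequence, so reads from elsewhere in the gene do not check the edit. Every direction below is thus that of libraries labelled TRPM2 KO. The paper states that its KO and Scr cells were authenticated by RT-PCR and Western blotting.

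The cells were checked against marker genes. Of 12 sympathoadrenal markers, 11 were expressed highly enough to be tested without treatment. The 12 summed to 7613 to 9055 normalized CPM over the 16 libraries, and STMN2 had the highest mean over them, 1629. TH, the tyrosine hydroxylase that defines catecholamine synthesis, was at 0 reads in 6 libraries and had a mean of 0.33 normalized CPM. Fibroblast markers summed to 13.8 to 154 normalized CPM in untreated Scr and 151 to 252 in untreated libraries labelled TRPM2 KO. After doxorubicin they summed to 10.2 to 92.3 in Scr and 180 to 256 in KO. COL3A1 was the most abundant of these 5 genes, with a mean of 114, and 4 of the 5 passed limma's test as higher in KO without treatment, while COL1A2 did not pass (means of 2.22 and 1.15). DESeq2 called 3 of the 5, and the shares of all genes that passed limma's test were 4.84% without treatment and 8.69% after doxorubicin. Epithelial markers summed to at most 3.15 normalized CPM in any library, and of the hepatocyte markers APOA1 was at 0 in all 16 libraries. ALB and the leukocyte and endothelial markers were not analysed here. After doxorubicin the 4 that could be tested, COL1A1, COL3A1, DCN and LUM, passed as higher in KO. There DCN and LUM, and without treatment DCN, reached the filter only through the KO libraries, where they were high. The part of these markers in the genotype differences below was not tested.

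Levels were compared between genes per kilobase of merged exons, as means over the 16 libraries. AKR1B1, the aldose reductase of the polyol pathway, was highest at 40.3 ± 4.68 normalized CPM per kilobase (SD, n = 16). CBR1 followed at 15.3 ± 2.28, and AKR7A2, a reductase of succinic semialdehyde and aflatoxin aldehydes, lay at 14.9 ± 2.27. AKR1A1, the general aldehyde reductase, had 12.8 ± 1.54 and POR 11.4 ± 0.937. CBR4, a mitochondrial member of the short-chain dehydrogenase family, had 4.67 ± 0.872, CBR3 1.46 ± 0.971 and AKR1C3 0.133 ± 0.111. CBR1, AKR7A2, AKR1A1 and POR were neighbours in this order whose values overlapped within their spread, whereas AKR1B1 lay above all of them in every library, with a lowest value of 31.2 against a highest of 18.7 for CBR1. AKR1B1 lies at chr7:134442350-134459284 and AKR7A2 at chr1:19303965-19312146, both on the minus strand of GRCh38. On the scale per kilobase AKR1B1 made up 39.9% of the sum of the 8 genes and CBR1 15.2%.

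Some of these values are less certain because the genes share sequence or position with others. CBR1 lies whole within SETD4, which is on the opposite strand, CBR3 is covered by CBR3-AS1, and CBR4 overlaps PALLD, which had a mean of 132 normalized CPM, without regard to length, against 23.9 for CBR4. The library kit keeps strand, but whether the counting used it is not given in the sources used here. The GENCODE annotation holds 7 pseudogenes named after AKR1B1 and 1 named after AKR7A2, and AKR1C3 has close paralogs, so reads of these genes may be split.

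Stretches before the starts of 3 genes are printed because CBR1, AKR1B1 and AKR7A2 are the members that passed a test below. They come from RefSeq on GRCh38.p14, whose windows run from 250 bases before to 50 bases after a start and were given for 6 of the 8 genes. The bases shown lie before the gene and outside exons of protein-coding genes. Capitals mark matches, on either strand, of the core of the antioxidant response element, TGACNNNGC, bound by NRF2, and of the core of the dioxin response element, GCGTG.
CBR1, plus strand, chr21:36069774-36069940: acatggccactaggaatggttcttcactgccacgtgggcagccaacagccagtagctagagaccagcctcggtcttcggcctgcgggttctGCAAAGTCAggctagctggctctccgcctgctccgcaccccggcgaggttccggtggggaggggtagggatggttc
AKR7A2, minus strand, chr1:19312147-19312325: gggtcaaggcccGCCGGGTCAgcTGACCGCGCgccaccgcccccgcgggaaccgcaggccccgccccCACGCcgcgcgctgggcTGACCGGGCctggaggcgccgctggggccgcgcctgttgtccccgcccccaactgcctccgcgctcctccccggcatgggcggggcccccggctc
AKR1B1, minus strand, chr7:134459285-134459489: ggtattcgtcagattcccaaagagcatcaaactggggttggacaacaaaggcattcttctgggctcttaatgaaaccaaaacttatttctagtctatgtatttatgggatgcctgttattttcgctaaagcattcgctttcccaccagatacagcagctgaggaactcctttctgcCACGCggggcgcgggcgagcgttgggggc

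The CBR1 window held 1 match of TGACNNNGC, reading TGACTTTGC on the minus strand and beginning 159 bases before the RefSeq start, and 2 matches of GCGTG, 1 before and 1 after the start and both outside the stretch shown. The AKR7A2 windows each held 3 matches of TGACNNNGC and 1 of GCGTG. The AKR1B1 windows held 1 match of GCGTG each and none of TGACNNNGC. No match of one motif overlapped a match of the other. Of all 35116 RefSeq windows, 13.3% held TGACNNNGC and 36.5% held GCGTG, so the second is common in windows of this length, and a match is a description of letters and not of binding.

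**Figure D1:**
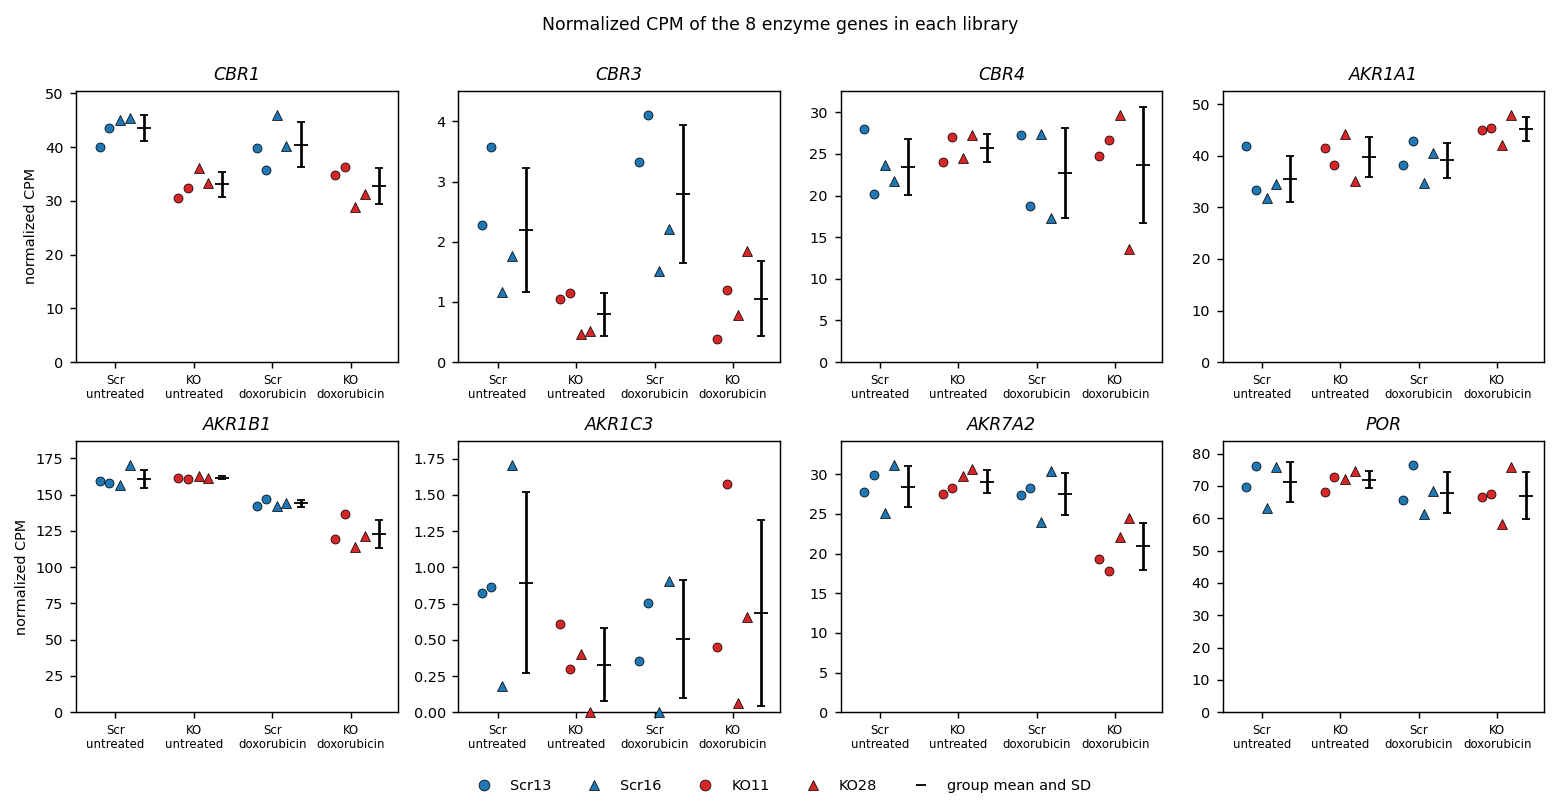
Normalized CPM of the 8 genes (vertical axis, from 0, a scale of its own per gene) in each of the 16 libraries, by group along the horizontal axis; circles and triangles are the 2 clones of a genotype, and black bars give the group mean and SD. The untreated CBR1 values of the 2 genotypes do not overlap, AKR1B1 and AKR7A2 have their lowest means in the KO libraries given doxorubicin, and CBR3 and AKR1C3 reach at most 4.10 and 1.70 in any library.

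The first comparison asked whether the reductases differ between genotypes before any drug is given. CBR1, the main cytosolic doxorubicin carbonyl reductase, was lower in the untreated libraries labelled TRPM2 KO. KO11 gave 30.5 and 32.4 normalized CPM, and KO28 gave 36.1 and 33.3. Scr13 gave 40.0 and 43.6, and Scr16 gave 45.0 and 45.3. Each KO library thus lay below each Scr library, with group means of 33.1 ± 2.34 and 43.5 ± 2.45 (SD, n = 4). The log2 difference was -0.38 (SE 0.10, limma adjusted p = 0.0275), which is a level of 0.766 times that of Scr. CBR1 was the only member to pass, 1 of 7 tested, where 4.84% of all 14364 genes tested passed in either direction. By edgeR's quasi-likelihood test and by DESeq2 on the recovered reads, CBR1 was likewise the only 1 of the 7 called.

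The CBR1 call depended on which libraries were included. It was lost in 5 of the 8 fits that left out a library, those without either KO11 library, without the second Scr13 library and without either Scr16 library, and in the fits without clone KO11, Scr13 or Scr16. The difference then lay between -0.44 and -0.32 and kept its direction, with adjusted p-values from limma of 0.0721 to 0.383. An exact permutation test of CBR1 over 4 against 4 libraries gave p = 0.0286, the smallest it can give, and 0.114 after adjustment over the 4 pairwise comparisons of the gene. With clones as the unit, 2 against 2, no exact test can go below p = 0.333.

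CBR3, the inducible paralog of CBR1 next to it on chromosome 21, was measured with few reads. The untreated libraries labelled TRPM2 KO had 1.05 and 1.14 normalized CPM in KO11 and 0.469 and 0.511 in KO28. The Scr libraries had 2.28 and 3.57 in Scr13 and 1.17 and 1.76 in Scr16. The groups did not overlap, but the lowest Scr value, from 19 reads, lay just above the highest KO value, also from 19 reads. The log2 difference of -0.80 (SE 0.29, limma adjusted p = 0.148) did not pass, with a 95% confidence interval of -1.40 to -0.20. Its size depended on the scale. It was -1.34 at a pseudocount of 0.1 and -1.44 by edgeR, the latter outside that interval, and passed in neither.

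The other members did not pass this test. The log2 difference of CBR4 was 0.14, with a 95% confidence interval of -0.13 to 0.40, and that of AKR1A1 was 0.16, from -0.07 to 0.40. AKR1B1 differed by 0.01, with an interval of -0.13 to 0.14, AKR7A2 by 0.03, from -0.20 to 0.27, and POR by 0.02, from -0.16 to 0.19. These intervals leave room for differences of about the size seen for CBR1 in CBR4 and AKR1A1, and for smaller ones in AKR1B1, AKR7A2 and POR.

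CBR1 and CBR3 lie 61.7 kb apart on chromosome 21 (end of CBR1 to start of CBR3; CBR1 at chr21:36069941-36073166, plus strand, GRCh38), and TRPM2 starts 8280 kb further along the same chromosome. The other genes within 500 kb were read in the same fit. Of 13 such genes 7 were tested, and 1 passed without treatment by limma, 0 by edgeR and 1 by DESeq2, beside the 4.84% of all genes that passed limma's test. This was CBR3-AS1, the antisense RNA over CBR3, with a log2 difference of -1.10 (SE 0.29, limma adjusted p = 0.0288). Its values were 0.276, 1.45, 0.335 and 0.146 normalized CPM in the KO libraries and 2.01, 2.13, 2.88 and 1.76 in Scr, without overlap. All 4 Scr libraries but only 1 KO library reached 1 normalized CPM, so it was tested through the group where it was high. Reads of CBR3 and CBR3-AS1 cannot be told apart if the counting ignored strand. The coding neighbours differed less. SETD4, which spans CBR1, differed by -0.09 (SE 0.15), DOP1B by -0.02 (SE 0.11), MORC3 by 0.08 (SE 0.11) and CHAF1B by -0.13 (SE 0.11), none of which passed.

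**Figure D2:**
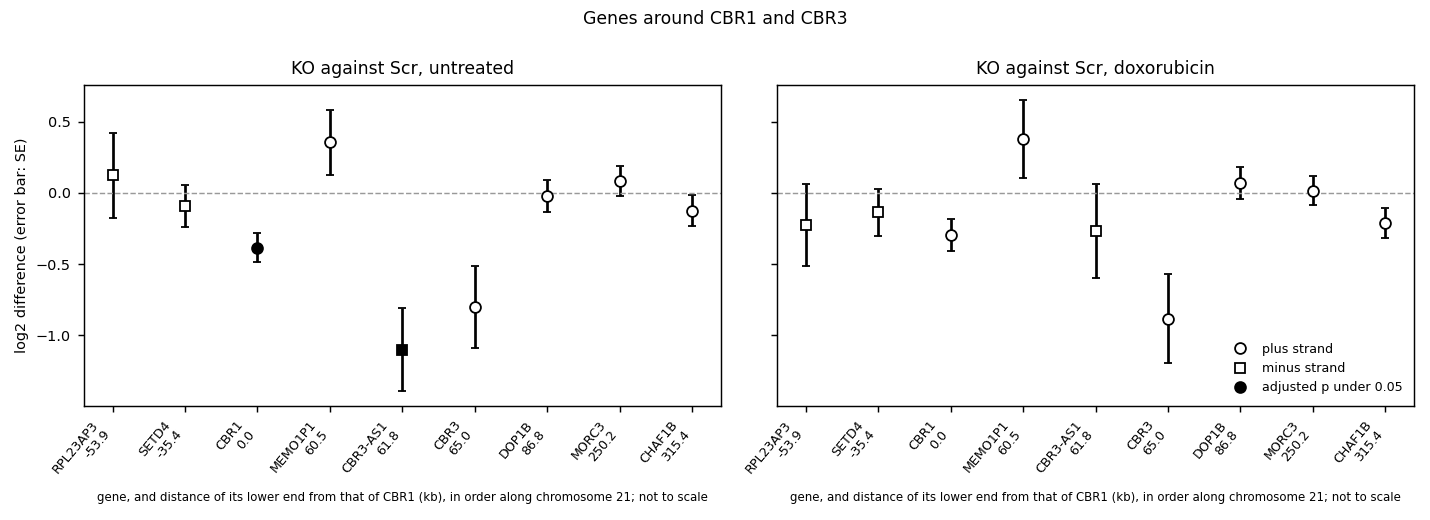
limma log2 differences of libraries labelled TRPM2 KO from Scr (vertical axis, error bars SE) for CBR1, CBR3 and the tested genes within 500 kb, in chromosome order, with the distance in kb of each gene's lower end from that of CBR1 under its name; left, untreated, and right, after doxorubicin. Filled symbols passed the test: CBR1 and CBR3-AS1 without treatment and no gene after doxorubicin.

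The second comparison asked the same after 24 h of doxorubicin. None of the 7 members passed limma's test, where 8.69% of 14572 genes did. At an unadjusted p under 0.05 there were 4 members, CBR1, CBR3, AKR1B1 and AKR7A2, each lower in the libraries labelled TRPM2 KO, beside 2953 of the 14572 genes. On the recovered reads, edgeR called 0 of the 7 and DESeq2 called 1, AKR1B1.

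AKR1B1 came nearest to the threshold. It had 119, 137, 114 and 122 normalized CPM in the KO libraries and 142, 147, 142 and 145 in Scr, so that every KO value lay below every Scr value. The log2 difference was -0.23 (SE 0.08, limma adjusted p = 0.0670), with a 95% confidence interval of -0.39 to -0.07. The call was made with library size alone as the scale (adjusted p = 0.0467, limma), with DESeq2 (0.0326), with clone as a random block in limma (0.0420) and without the second KO11 library (0.0320).

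AKR7A2 had 19.3 and 17.8 normalized CPM in KO11 and 22.1 and 24.5 in KO28 after doxorubicin. The Scr libraries had 27.4 and 28.3 in Scr13 and 24.0 and 30.4 in Scr16, and the only overlap was that of a KO28 library with a Scr16 library. The log2 difference of -0.38 (SE 0.14, limma adjusted p = 0.0933) did not pass.

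CBR1 remained lower in the KO means after doxorubicin, at 32.8 ± 3.41 against 40.4 ± 4.17 normalized CPM (SD, n = 4). The KO libraries had 34.8 and 36.3 in KO11 and 28.8 and 31.2 in KO28, and the Scr libraries 39.9 and 35.8 in Scr13 and 45.9 and 40.2 in Scr16. The groups met at the second Scr13 library, and the log2 difference of -0.30 (SE 0.12, limma adjusted p = 0.133) did not pass.

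CBR3 had 0.384, 1.20, 0.785 and 1.85 normalized CPM in the KO libraries and 3.33, 4.10, 1.52 and 2.21 in Scr, with overlap. Its log2 difference was -0.88 (SE 0.31, limma adjusted p = 0.0890). It passed in the fits without the first Scr16 library and without clone Scr16.

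The remaining members differed less from Scr after doxorubicin, and none of them passed. AKR1A1 had 45.0, 45.4, 42.1 and 47.8 normalized CPM in KO and 38.3, 42.8, 34.8 and 40.5 in Scr, which overlapped at a single pair of libraries. Its log2 difference was 0.20, with a 95% confidence interval of -0.01 to 0.42, and so opposite in sign to that of CBR1. CBR4 differed by 0.04, from -0.38 to 0.45. Its libraries spread widely in both groups, from 13.6 to 29.6 normalized CPM in KO and from 17.3 to 27.4 in Scr. The lowest and highest KO values were the second and first KO28 libraries. POR differed by -0.02, with an interval of -0.22 to 0.18.

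Doxorubicin itself was then compared with no treatment within each genotype. In the Scr clones none of the 7 members passed limma's test, against 11.6% of 14378 genes. At an unadjusted p under 0.05 there was 1 member, AKR1B1, beside 3644 of the 14378 genes, and edgeR and DESeq2 each called 0. AKR1B1 went from 159, 158, 157 and 170 normalized CPM to 142, 147, 142 and 145, without overlap, and its log2 difference was -0.16 (SE 0.06, limma adjusted p = 0.124).

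In the clones labelled TRPM2 KO, 2 of the 7 members passed, AKR1B1 and AKR7A2, where 17.5% of 14513 genes did in either direction, and edgeR and DESeq2 each called 2 members. AKR1B1 fell from 162, 161, 163 and 161 normalized CPM to 119, 137, 114 and 122. The untreated KO values had a coefficient of variation of 0.542%, and no treated library reached them. The log2 difference was -0.39 (SE 0.08, limma adjusted p = 6.4e-04), a level of 0.761 times that without treatment, and it passed in every fit that left out a library or a clone. An exact permutation test gave p = 0.0286, the smallest it can give, and 0.0381 after adjustment over the 4 pairwise comparisons of the gene. The same values were found for AKR1B1 between treatments in Scr and between genotypes after doxorubicin. These tests exchanged libraries regardless of clone, although both treatments of a genotype held the same 2 clones, so their p-values do not reflect that design.

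AKR7A2 fell from 27.6 and 28.3 normalized CPM in KO11 and 29.8 and 30.7 in KO28 to 19.3 and 17.8 and to 22.1 and 24.5. Treated and untreated libraries did not overlap. An exact permutation test, likewise regardless of clone, gave p = 0.0286 and 0.114 after adjustment over the 4 pairwise comparisons of the gene. The log2 difference was -0.46 (SE 0.13, limma adjusted p = 0.0138), a level of 0.725 times the untreated one. This call was lost when treated libraries of clone KO11 were left out. The limma adjusted p was 0.0530 without its first treated library, 0.0551 without its second and 0.360 without the clone. The last fit held only 2 libraries per treatment, and the difference stayed at -0.37 in KO28 alone.

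The other members did not pass in the KO clones. CBR1 differed by -0.02, with a 95% confidence interval of -0.25 to 0.22, which came from opposite differences of 0.17 in KO11 and -0.21 in KO28. AKR1A1 differed by 0.18, from -0.03 to 0.40, and was higher after doxorubicin in the mean of each of the 4 clones, by 0.11 to 0.18, without passing in either genotype. CBR3 differed by 0.17 (SE 0.31), CBR4 by -0.16 (SE 0.17) and POR by -0.11 (SE 0.09).

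**Figure D3:**
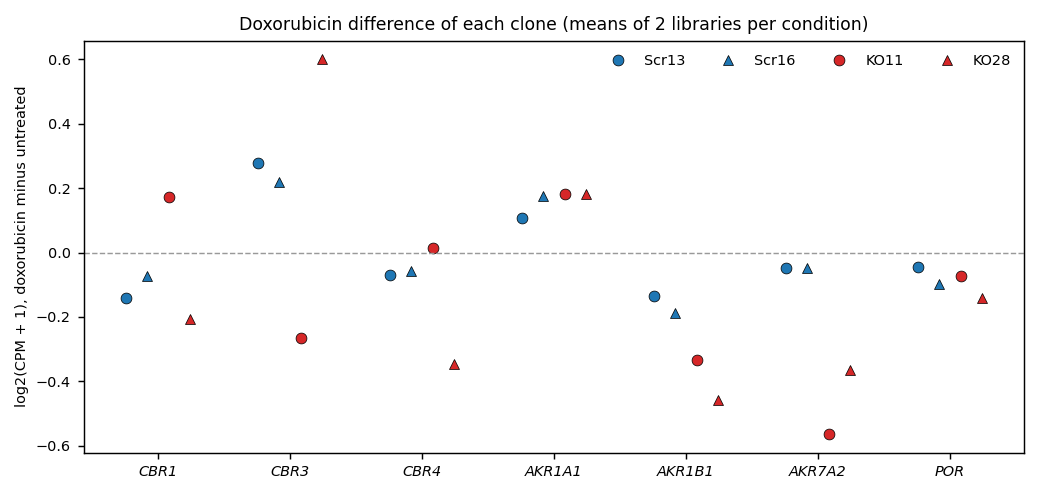
Mean log2(normalized CPM + 1) after doxorubicin minus that without treatment (vertical axis) for each of the 4 clones, from 2 libraries per condition, for the 7 tested genes along the horizontal axis. AKR1B1 is below 0 in all 4 clones and lowest in KO28 (-0.46), AKR7A2 is at -0.05 in both Scr clones and at -0.56 and -0.37 in the KO clones, and AKR1A1 is above 0 in all 4.

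Whether the doxorubicin difference itself differed between genotypes was tested as an interaction over the 16 libraries. None of the 7 members passed, and 0.0196% of all 15325 genes did, 3 in number. By limma, 2 members had an unadjusted p under 0.05, as had 1148 of the 15325 genes, and edgeR and DESeq2 each called 0. The interaction of AKR1B1 was -0.23 (SE 0.10, adjusted p = 0.567) and that of AKR7A2 -0.42 (SE 0.17, adjusted p = 0.568), both by limma. A difference between the falls in the KO clones and in Scr was thus not shown. Their 95% confidence intervals were -0.43 to -0.04 and -0.77 to -0.06, and that of CBR1 was -0.22 to 0.39.

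**Figure D4:**
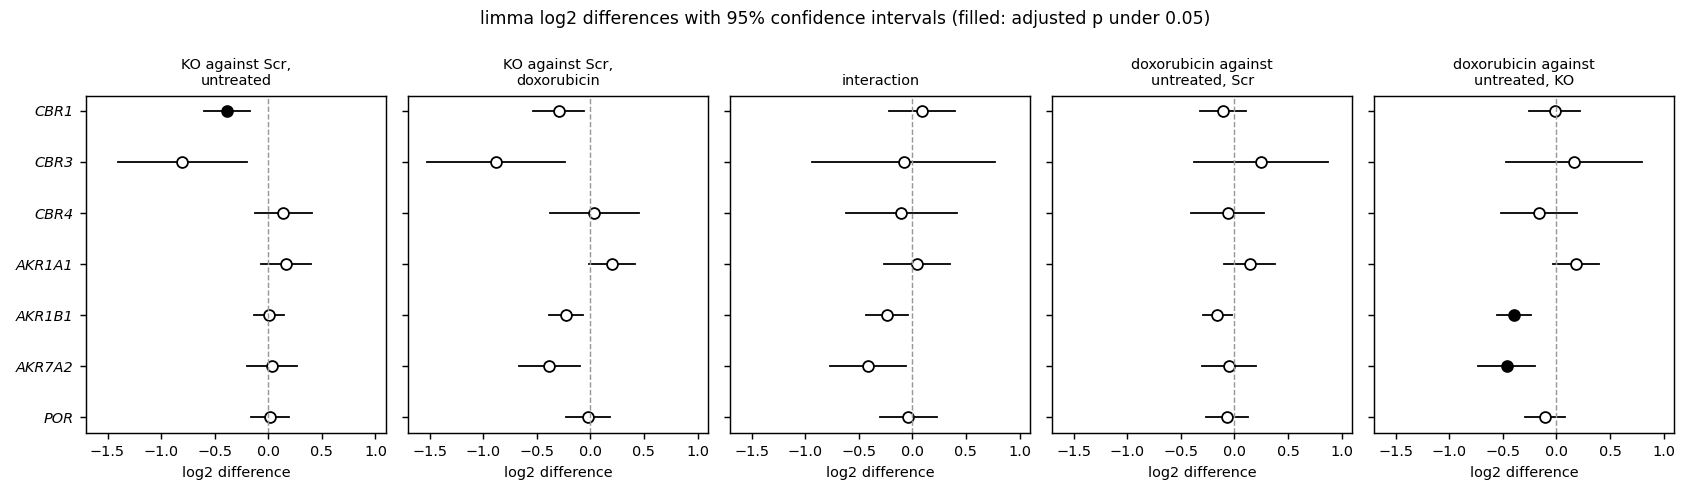
limma log2 differences (horizontal axis) with 95% confidence intervals (lines) of the 7 tested genes in the 5 comparisons; filled circles passed at an adjusted p under 0.05. The filled ones are CBR1 between genotypes without treatment and AKR1B1 and AKR7A2 after doxorubicin in the KO clones, and CBR3 has the widest intervals.

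AKR1C3, a hydroxysteroid dehydrogenase also known to reduce anthracyclines, was close to the limit of detection and was not tested by limma. It had 0 to 30 reads per library, 0 in 2 libraries and at most 3 in 4, and reached 1 normalized CPM in 2 libraries. A floor of 3 reads corresponds to 0.118 to 0.285 normalized CPM in these libraries, for counting error only. The group means were 0.895 ± 0.623 in untreated Scr, 0.327 ± 0.252 in untreated KO, 0.506 ± 0.410 in treated Scr and 0.686 ± 0.641 in treated KO (SD, n = 4). The groups overlapped in all 4 comparisons, and two-sided exact permutation tests gave p = 0.171, 0.714, 0.400 and 0.371, with adjusted values of 0.533 to 0.714 over the 4. Libraries of 1 clone could differ widely, as with 3 and 30 reads in untreated Scr16, and no difference of AKR1C3 exceeded the spread between libraries.

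POR had the smallest SD in relation to its mean over the 16 libraries. It had 63.2 to 76.2 normalized CPM in untreated Scr and 68.2 to 74.7 in untreated KO, then 61.2 to 76.3 and 58.1 to 76.0 after doxorubicin, and its groups overlapped in every comparison. CBR4 had a coefficient of variation of 29.5% in treated KO and 23.9% in treated Scr, against 14.4% in untreated Scr and 6.54% in untreated KO.

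Other reductases of the same kind were counted as a group. Of 25 further aldo-keto reductases and short-chain carbonyl reductases 21 were measured, and 12 to 14 were tested per comparison. None passed limma's test in any of the 5 comparisons, edgeR called none, and DESeq2 called 1 in 1 comparison, doxorubicin in Scr. Of all genes tested by limma, 4.84% passed between genotypes without treatment, 8.69% after doxorubicin and 0.0196% for the interaction. For doxorubicin these shares were 11.6% in Scr and 17.5% in KO, so few of a list this short would pass at those shares. At an unadjusted p under 0.05 there were 0 between genotypes without treatment, 2 after doxorubicin, 0 for the interaction and 2 for doxorubicin in each genotype. Over all genes tested these counts were 2051 of 14364, 2953 of 14572, 1148 of 15325, 3644 of 14378 and 4353 of 14513, in the same order with Scr before KO. The median log2 difference lay between 0.02 and 0.10, beside -0.01 to 0.02 for all genes tested. DHRS7, a short-chain reductase, and DCXR, the dicarbonyl and xylulose reductase, had means of 40.2 and 37.0 normalized CPM. AKR1C1, the paralog of AKR1C3, had a mean of 0.86, and AKR1B10, a reductase of anthracyclines in other tissues, was at 0 reads in 14 of 16 libraries.

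Of 17 other flavoenzymes that reduce quinones or belong to the same families as POR, 16 were measured. NOS1, the neuronal nitric oxide synthase with a reductase domain related to POR, was lower in libraries labelled TRPM2 KO, with a mean of 1.91 against 5.83 normalized CPM without treatment. Its log2 difference was -1.23 (SE 0.22, limma adjusted p = 9.3e-04) without treatment and -1.11 (SE 0.30, 0.0222) after doxorubicin. It was 1 of 14 tested without treatment and 1 of 3 of 14 that passed after doxorubicin. The others were NOS2, the inducible synthase, at -1.19 (SE 0.32, limma adjusted p = 0.0214), whose level was near the filter in KO and which was tested because all 4 Scr libraries reached it, and NQO1, the quinone reductase that avoids the semiquinone, which was higher by 1.09 (SE 0.20, limma adjusted p = 9.0e-04).

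NQO1 had 7.42, 7.13, 10.9 and 13.6 normalized CPM in the treated Scr libraries and 16.4, 27.5, 20.5 and 22.1 in the treated KO libraries, without overlap. Without treatment the genotypes had means of 14.9 and 14.3. In the KO clones NQO1 rose with doxorubicin by 0.56 (SE 0.17, limma adjusted p = 0.0211). In Scr its difference was -0.56 (SE 0.23, limma adjusted p = 0.137) and did not pass, and the interaction of 1.12 (SE 0.30, limma adjusted p = 0.207) did not pass.

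FDXR, the mitochondrial ferredoxin reductase and a target of p53, rose in both genotypes with doxorubicin. It went from a mean of 22.4 to 75.1 normalized CPM in Scr (log2 difference 1.67, SE 0.14, limma adjusted p = 3.5e-07) and from 25.6 to 97.2 in KO (1.94, SE 0.16, 3.2e-09). Of 14 flavoenzymes tested, 2 passed in Scr, FDXR higher and TXNRD1, the cytosolic thioredoxin reductase, lower (-0.31, SE 0.07, limma adjusted p = 0.00401). In KO, 2 of 13 passed, FDXR and NQO1, both higher. Over all genes tested, the shares that passed were 11.6% in Scr and 17.5% in KO, and between genotypes 4.84% without treatment and 8.69% after doxorubicin.

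The proteins that take electrons from POR were counted next, the microsomal P450s, haem oxygenases, squalene epoxidase and the cytochrome b5 system. Of 22 such genes 20 were measured. None of 12 to 14 tested passed limma's test between genotypes or for the interaction. Of all genes tested, 4.84% passed without treatment, 8.69% after doxorubicin and 0.0196% for the interaction. At an unadjusted p under 0.05 there were 3 without treatment, 2 after doxorubicin and 2 for the interaction. Over all genes tested these counts were 2051 of 14364, 2953 of 14572 and 1148 of 15325. In the same 3 comparisons edgeR called 0 each, and DESeq2 called 1, 0 and 1. After doxorubicin 2 of 13 passed in Scr and 4 of 13 in KO, all lower, where 11.6% and 17.5% of all genes tested passed in either direction. SQLE, the squalene epoxidase of sterol synthesis, fell in both, by 0.55 (SE 0.09, limma adjusted p = 3.6e-04) in Scr and by 0.56 (SE 0.09, 1.6e-04) in KO on the log2 scale. DHCR7, the last enzyme of cholesterol synthesis, fell by 0.83 (SE 0.11, limma adjusted p = 3.3e-06) in KO, from a mean of 49.6 to 27.3 normalized CPM. In Scr its difference of -0.29 (SE 0.10, limma adjusted p = 0.0835) did not pass, nor did the interaction of -0.55 (SE 0.14, limma adjusted p = 0.207). CYB5B passed in both genotypes and CYB5A in KO. The 2 doxorubicin comparisons use different libraries, but each shares libraries with both genotype comparisons.

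Of the 18 genes that supply NADPH, 17 were tested. TKT, the transketolase of the pentose phosphate pathway, was higher in libraries labelled TRPM2 KO without treatment (313 against 258 normalized CPM, log2 difference 0.27, SE 0.07, limma adjusted p = 0.0203) and after doxorubicin (334 against 281, 0.25, SE 0.07, 0.0343). ALDH1L2, the mitochondrial formyltetrahydrofolate dehydrogenase, was lower in both. It had 4.13, 4.52, 2.88 and 7.08 normalized CPM in KO without treatment and 17.6, 18.0, 20.9 and 15.7 in Scr (log2 difference -1.79, SE 0.21, limma adjusted p = 8.8e-06). These were the 2 of 17 that passed in each genotype comparison, beside 4.84% and 8.69% of all genes. Without treatment edgeR and DESeq2 called 2 each, and after doxorubicin 1 and 2. With doxorubicin, MTHFD1 of the cytosolic folate pathway fell by 0.40 in Scr and 0.41 in KO on the log2 scale (SE 0.08, limma adjusted p = 0.00380 and 0.00112). PGLS rose in Scr and IDH2 fell in KO, which made 2 of 17 in each, beside the 11.6% and 17.5% of all genes.

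The last group was NRF2, the factor that binds the antioxidant response element, with its partners and targets, 18 genes of which 12 to 15 were tested. None passed between genotypes without treatment, where 4.84% of all genes did. Of the list 1 had an unadjusted p under 0.05, beside 2051 of the 14364 genes, and neither edgeR nor DESeq2 called any. After doxorubicin 1 of 13 passed, NQO1, beside 8.69% of all genes, and 4 had an unadjusted p under 0.05, beside 2953 of the 14572 genes. With doxorubicin, 3 of 13 passed in Scr, MAFF and FTL higher and TXNRD1 lower, and 3 of 13 in KO, MAFG, NQO1 and FTL, all higher, where 11.6% and 17.5% of all genes tested passed in either direction. FTL, the ferritin light chain, rose from 356 to 453 normalized CPM in Scr and from 360 to 431 in KO (log2 differences 0.35, SE 0.06, and 0.26, SE 0.08; limma adjusted p = 0.00108 and 0.0237). NFE2L2, which encodes NRF2, had group means of 44.6 to 52.2. TXNRD1 and NQO1 are counted in both this group and the flavoenzymes, and each group was drawn up with earlier results of these data known.

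Likeness was described by Pearson's r across the 16 libraries, which share 4 groups, over 14474 expressed genes, and carries no p. The genes most like AKR1B1 were MCM6 and GINS2 (r = 0.945 for each), and those most like AKR7A2 were RADIL (0.902) and KIF18B (0.879). CBR1 was followed by the pseudogene FAM120A2P (0.909) and NOS1 (0.872), CBR3 by EGFLAM (0.887) and FAM50B (0.866), AKR1A1 by FHL3 (0.874) and FGF1 (0.836), POR by TMEM198 (0.891) and EIPR1 (0.885), CBR4 by LRP12 (0.801), and AKR1C3 by TEF (0.810) and VAPA (0.786). Among the members, AKR1B1 and AKR7A2 were the pair most alike (0.728), and CBR1 and AKR1A1 ran in opposite directions most (-0.644). CBR1 and CBR3, the neighbours on chromosome 21, had an r of 0.417.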

How the data were processed

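The deposited tables, one of 8 untreated and one of 8 doxorubicin libraries, hold a signal that the authors normalized with edgeR, read counts as CPM with the library size adjusted by a factor (normalized CPM), for 26410 genes on GRCh38. The submitters' processing notes name bcl2fastq, HISAT2 2.1.0, HTSeq and edgeR. The annotation release is not given in the sources used here. Columns of the authors' own comparisons (fold changes, p-values and rankings) were not used, and 0 columns were left unassigned. Whole reads were recovered for 100% of values (tolerance 0.001 read, largest deviation 5.39e-05). The normalization factors (0.974 to 1.03) differed by at most 0.0104 from factors recomputed over all 16 libraries. They differed by at most 0.0183 from factors recomputed within each table. They were thus taken as set over both tables, which the sources used here do not state, and values were compared across them.

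Values were put on a log2 scale with a pseudocount of 1 and tested with limma 3.58.1 in R 4.3.3 (moderated, abundance trend), with Benjamini-Hochberg adjustment over all genes tested. Genes needed 1 normalized CPM in 4 libraries of the fit. On the recovered reads, edgeR 4.0.16 and DESeq2 1.42.0 were alternatives, and edgeR called 636 genes between genotypes without treatment and 1193 after doxorubicin. Fold changes on the log2(value + 1) scale understate those of low genes. Library depth sets the precision of low genes, and floors cover counting error only, while confidence intervals are limma's and cover the spread between libraries. The fits were tested on simulated data. Names and positions came from GENCODE 29 and RefSeq for 95.9% of identifiers.

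Every member was named, with TRPM2 as the edited gene. In the lists, genes that passed were named first by adjusted p, up to 4 per list and comparison, and the 2 genes with the highest r per member were named, except that some items are not reported here. AKR1C1, AKR1B10, DHRS7, DCXR and NFE2L2 were named after their values were seen. The members and lists were chosen with earlier results of these data known.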

Additional observations from a re-analysis of the deposited data

How the results depend on the processing

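The log2 differences of the 7 tested members in the 5 comparisons were recomputed under each alternative, which gave 757 values, of which 692 kept direction and side of the threshold, 46 reversed, 11 lost the call and 8 gained it. The reversals were in differences that had not passed, and the cause was not tested. The calls that were lost or gained are those of CBR1 without treatment, AKR7A2 in the KO clones, and AKR1B1, AKR7A2 and CBR3 between genotypes after doxorubicin, for which AKR7A2 passed without the first Scr16 library.

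Between genotypes without treatment, the number of genes called was 695, and it was 368 with no filter on low values, 330 without clone Scr13, 327 without clone Scr16 and 508 to 678 when leaving out each library. After doxorubicin it was 1266, with 510 without clone KO11, 575 without clone KO28 and 814 to 1314 when leaving out libraries. For the interaction it was 3, with 5 under no filter, 1 at a pseudocount of 0.1, 31 by DESeq2, 0 without clone KO11 or Scr16, 5 without Scr13, 1 without KO28 and 1 to 4 when leaving out libraries. For doxorubicin in Scr it was 1669, with 857 under no filter, 237 without clone Scr13, 781 without Scr16 and 1081 to 1676 when leaving out libraries. In KO it was 2539, with 995 without clone KO11.

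Replicate numbers showed no pairing of the samples. For each clone and treatment, the second library was subtracted from the first gene by gene. These differences correlated between the sets of clone and treatment with r between -0.10 and 0.12. With the replicate number as a block, 697 and 1365 genes were called between genotypes without treatment and after doxorubicin. The other comparisons took clone and replicate number together as the block, which also removes differences between clones. With it, 2129 and 2905 genes were called for doxorubicin in Scr and KO, and 22 for the interaction. Among the members these blocks changed 1 call, AKR1B1 between genotypes after doxorubicin (limma adjusted p = 0.0496).

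Without treatment, the AKR1B1 difference of 0.01 was -0.0066 with library size alone and -0.015 without clone Scr13. POR was -0.020 without Scr16 and -0.011 without KO28, and AKR7A2 -0.024 without KO28. After doxorubicin, CBR4 was -0.13 without KO11 and POR 0.044 without Scr13. The interaction of CBR3 was 0.036 by edgeR and by DESeq2 and 0.35 without KO11, that of CBR1 -0.099 without KO11 and that of CBR4 0.078 without KO28. Doxorubicin in KO gave 0.17 for CBR1 and 0.015 for CBR4 without KO28. When leaving out each library, differences that changed sign ranged between genotypes without treatment from -0.0063 to 0.033 for AKR1B1, -0.023 to 0.076 for AKR7A2 and -0.039 to 0.050 for POR, and after doxorubicin from -0.086 to 0.27 for CBR4 and -0.082 to 0.046 for POR. For the interaction they ranged from -0.27 to 0.092 for CBR3, -0.22 to 0.13 for CBR4, -0.040 to 0.092 for AKR1A1 and -0.099 to 0.029 for POR. For doxorubicin in Scr they ranged from -0.16 to 0.053 for CBR4 and -0.10 to 0.014 for AKR7A2, and in KO from -0.067 to 0.041 for CBR1 and -0.29 to 0.069 for CBR4. The members with the fewest reads were CBR3, with 6 to 65 per library, and AKR1C3, with 0 to 30, and their libraries also spread most in relation to their mean.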
